A study of Mus musculus with 18 samples.

Results

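Polysome-associated mRNA was compared between RAW264.7 cells given lipopolysaccharide (LPS) with mTOR inhibited by torin1 and control cells. The libraries were chosen by their labels alone, as all those of polysome-associated mRNA with either treatment, and they were 6 of the 18 libraries of the series, 3 per treatment, paired by replicate number. RAW264.7 is an established mouse macrophage line transformed by the Abelson leukaemia virus. The study followed how such cells change their lysosomes when activated, and it prepared total and polysome-associated mRNA from the same lysates in 3 independent experiments. Treated cells (LPS plus torin1) received 100 nM torin1 15 min ahead of 500 ng/mL LPS from Salmonella enterica, which stayed on for 6 h. Control cells carry the treatment label Veh, which the methods describe as DMSO, and the labels give them no time. Cells given the same LPS for 6 h without torin1 (LPS alone) supplied 3 further polysome libraries. These were fitted in the same model, so they share in its estimate of the spread, and their values are set beside the comparison. Cells given torin1 without LPS were not analysed here, so LPS and torin1 change together between the compared groups and their parts in a difference cannot be told apart from this comparison alone. Polysome-associated mRNA was the RNA of the pooled heavy fractions of a sucrose gradient, which hold mRNAs loaded with several ribosomes, so the libraries show the pool of mRNAs under translation and not how fast each is read.

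LPS is a component of the outer membrane of Gram-negative bacteria. Macrophages sense it through CD14 and Toll-like receptor 4, whose adaptors activate NF-kB and MAP kinases and, through IRF3 and autocrine type I interferon, the interferon-stimulated genes. The mTOR kinase, in its complex mTORC1, promotes growth: it favours translation of mRNAs that begin with a 5' terminal oligopyrimidine (TOP) tract, which encode ribosomal proteins and translation factors, and it supports the synthesis of lipids, nucleotides and amino acids through SREBP and ATF4. It also keeps TFEB, TFE3 and MITF, transcription factors of lysosome and autophagy genes, in the cytosol. Torin1 blocks the active site of the kinase and so inhibits both mTOR complexes.

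The table held 11243 genes, and the 6 libraries had 37395300 to 47725557 counts on them, of which the 10 genes with the most counts took 5.42% to 7.78%. In what follows, levels are counts scaled to library size by the TMM method (CPM) and are listed in the order of experiments 1, 2 and 3. Fold changes are on the log2 scale with their standard errors (SE), and adjusted p-values come from edgeR's quasi-likelihood test with the experiment as a block and the Benjamini-Hochberg adjustment over all 11243 genes. A gene was called at an adjusted p of at most 0.05. The p-values measure the spread among these 3 experiments in 1 cell line. Libraries of a group differed by more than counting error, and the second library with LPS plus torin1 stood apart from the others of its group: the chi-squared per degree of freedom over all genes was 210.5 and 252 against it and 69.9 between the other pair, whereas pairs of control libraries gave 70.4 to 144. Relative to its group, this library held more of the short and less of the long mRNAs, with a Spearman correlation between deviation and transcript length of -0.246 over 10207 genes, against 0.072 and 0.304 in the first and the third. The second libraries of control and LPS alone leaned the same way (-0.113 and -0.228), and the third libraries of these groups the other way (0.211 and 0.290). Where leaving out an experiment moved the larger count of called members of a list by over 1.5 times, the counts without it are given beside it. Defining macrophage genes were present, such as Lyz2, Cd68, Csf1r and Adgre1 (164, 105.01 and 151 CPM in the controls). Of 24 markers of lymphoid, stromal, epithelial, endothelial, erythroid, hepatic and granulocytic cells only Cdh5 was in the table, at no more than 0.755 CPM in any of the 6 libraries.

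Of the 11243 genes, 4931 (43.9%) were called, and 2451 of these (21.8% of all genes) were higher and 2480 (22.1%) lower in the polysomes of cells given LPS plus torin1. The counts of called members of each list below stand against these shares. A change of at least 2-fold was called for 1149 genes upwards and 1022 downwards. In bulk libraries such as these, fewer cells that express a gene and less of its mRNA per cell cannot be told apart. With an experiment left out, 3231 (without 1), 6713 (without 2) or 2003 (without 3) genes were called, and every gene called both there and in the full set kept its direction. The median change over all genes was -0.03. Scaled to library totals alone it was -0.32, and the called genes were then split into 1574 higher and 4407 lower, so that changes here are relative to the bulk of genes as TMM sets it.

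The largest rises were those of immune genes and of a few secreted or surface proteins. Csf3, which encodes the granulocyte growth factor G-CSF (chromosome 11, 98701263 to 98703629 on the plus strand of GRCm38), had 2.46, 3.06 and 2.16 CPM in the controls and 588, 2245 and 874 CPM with LPS plus torin1, a log2 fold change of 8.71 (SE 0.34, adjusted p = 2.29e-06). Il1b, the pro-form of interleukin-1 beta (chromosome 2, 129364570 to 129371139, minus strand), went from 2.98, 4.68 and 1.80 to 855, 679 and 592 CPM, a change of 7.81 (SE 0.50, adjusted p = 1.23e-05). Irg1, annotated as Acod1, makes itaconate from an intermediate of the citric acid cycle (chromosome 14, 103046977 to 103056573, plus strand). It went from 22.7, 51.8 and 24.6 to 6796, 5975 and 6568 CPM, a change of 7.67 (SE 0.36, adjusted p = 4.24e-06). In each of these 3 genes every treated library lay far above every control library, and the treated libraries lay within a few-fold of one another. The others of the 10 largest rises were Ccl7, Cxcl2, Il1a, the endothelin gene Edn1, the membrane protease Mmp14 and, from control levels of at most 0.273 CPM, the collagen Col5a3 and the adhesion molecule Flrt3. The antisense gene Il1bos overlaps Il1b, and how the counting treated strands is not spelled out in the sources used here.

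The largest falls included genes of adhesion, signalling and DNA repair. Cytip, a regulator of leukocyte adhesion (chromosome 2, 58129137 to 58195532, minus strand), had 25.8, 16.6 and 26.5 CPM in the controls and 0.541, 0.182 and 0.177 CPM with LPS plus torin1, a change of -6.38 (SE 0.36, adjusted p = 8.17e-06). Dgkg, a diacylglycerol kinase, went from 16.1, 12.8 and 16.9 to 0.283, 0.312 and 0.266 CPM, a change of -5.73 (SE 0.29, adjusted p = 4.92e-06). Both were close to absent from the treated polysomes in all 3 experiments. Bmf, a pro-apoptotic BCL2 family member, changed by -5.12 (SE 0.32, adjusted p = 1.11e-05), the uracil glycosylase Ung by -4.08 (SE 0.35, adjusted p = 4.81e-05) and the Ras effector Rin1 by -4.10 (SE 0.19, adjusted p = 4.24e-06). Gadd45g, Zfp651, Angptl4 and the histone genes Hist1h2bl and Hist1h3a made up the rest of the 10.

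Cytokine and chemokine mRNAs were abundant in the polysomes of cells whose mTOR was inhibited. Of the 18 cytokine genes counted, 15 were higher and 2 lower, with a median change of 2.98, and of 12 chemokine genes 10 were higher and 1 lower, with a median of 4.85. Summed over the list, chemokines went from between 1304 and 1762 CPM in the control libraries to between 28150 and 29140 CPM in the treated ones. Cxcl2, a neutrophil attractant (chromosome 5, 90903871 to 90905938, plus strand), had 15.8, 16.7 and 6.05 and then 1401, 2204 and 1471 CPM, a change of 7.10 (SE 0.35, adjusted p = 4.67e-06). Ccl3, a chemokine made by macrophages, had 322, 405 and 228 and then 7754, 10095 and 10391 CPM, a change of 4.90 (SE 0.24, adjusted p = 4.52e-06). Ccl9 had 882, 940.0 and 671 and then 14608, 9297 and 10378 CPM, a change of 3.75 (SE 0.23, adjusted p = 1.05e-05). All 3 were well separated between the groups. Tnf, the gene of tumour necrosis factor, was already at 452, 549 and 224 CPM in the controls and reached 2957, 4684 and 2564 CPM, a change of 3.09 (SE 0.21, adjusted p = 1.67e-05). Il1rn, which encodes the antagonist of the interleukin-1 receptor, went from 53.2, 83.8 and 59.6 to 4233, 3738 and 4423 CPM, a change of 5.99 (SE 0.28, adjusted p = 3.64e-06). For neither gene did the groups overlap. Vegfa (a change of -1.14, SE 0.40, adjusted p = 0.0491) and Il16 (-0.66, SE 0.15, adjusted p = 0.00659) were the cytokine genes that fell, and Cxcl14 (-3.05, SE 0.27, adjusted p = 5.56e-05) the chemokine gene. The calls of Vegfa and Il16 against control were lost without experiment 1, and that of Il16 without experiment 3.

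**Figure D1:**
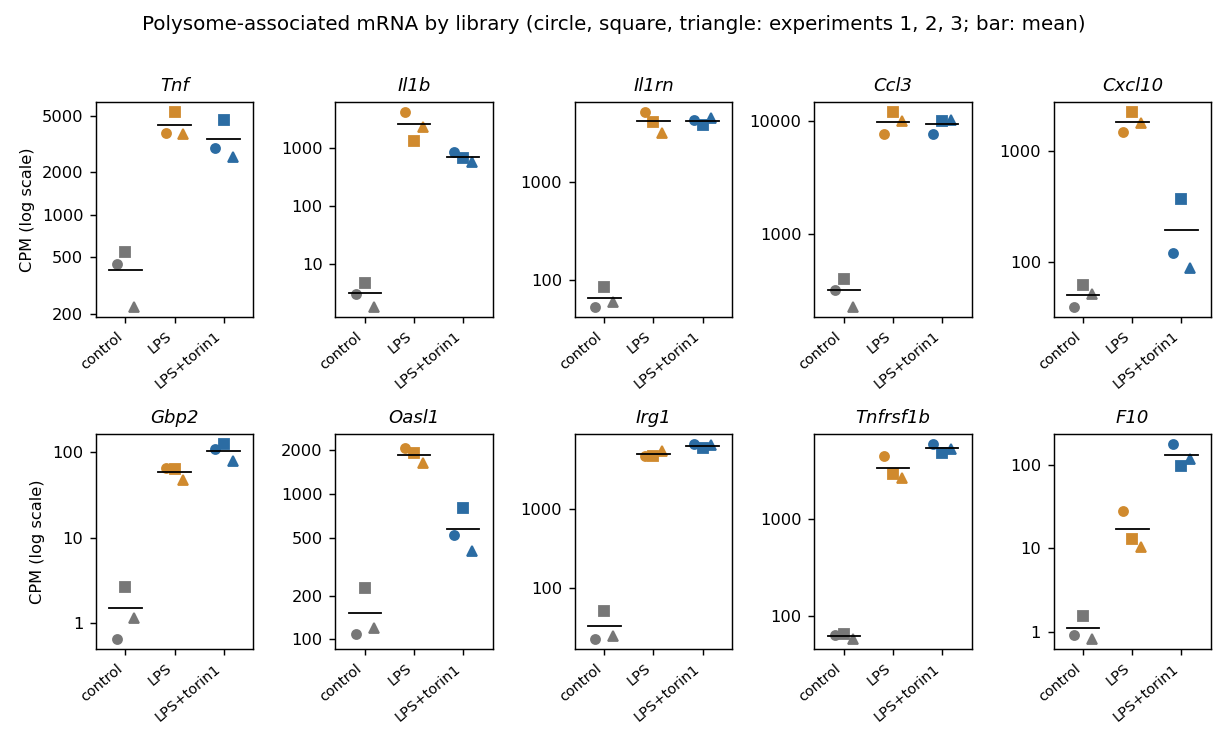
Levels of 10 genes of the inflammatory response in polysome-associated mRNA, in CPM on a log axis, for control, LPS and LPS plus torin1 libraries (circle, square and triangle for experiments 1, 2 and 3, bars for the means). Tnf, Il1rn, Ccl3, Gbp2, Irg1 and Tnfrsf1b were high in both LPS groups, Cxcl10 with LPS plus torin1 lay between control and LPS alone, and F10 was highest with LPS plus torin1.

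The motif GGG, any 2 bases and TTTCC, a form of the site read by NF-kB, was searched on both strands of the RefSeq promoters (GRCm38.p6, 250 bases before to 50 after the start), which 8568 genes of the table had. It was present in 2.17% of them, in 3 of 12 cytokine, 2 of 6 chemokine and 5 of 21 NF-kB pathway promoters. Those of members with values here are shown with 10 bases on either side, the motif in capitals, 5' to 3' along the gene. The window of Il16, which fell, holds it too, and a match says nothing of whether the site is used.
Cxcl2 (chr5:90903792-90903821, plus strand): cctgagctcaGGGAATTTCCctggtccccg
Il1rn (chr2:24345310-24345339, plus strand): ggaaatatgaGGGTTTTTCCgcttctgaca
Ccl9 (chr11:83578652-83578681, minus strand, motif on the other strand): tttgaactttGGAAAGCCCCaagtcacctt
Il16 (chr7:83655525-83655554, minus strand): catgactgctGGGAATTTCCcgctaaaggt

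Cytokine genes that differed from LPS alone were mostly lower with torin1. LPS alone called 4513 genes (40.1%) in the same model, 2155 higher (19.2%) and 2358 lower (21%), and shares its control libraries with the comparison. The difference between LPS plus torin1 and LPS alone was called for 2552 genes (22.7%), 1391 higher (12.4%) and 1161 lower (10.3%), or for 1557 without the block, and with an experiment left out for 920 (without 1), 4251 (without 2) or 205 (without 3). Calls of single genes against LPS alone, here and below, were not followed through these alternatives. The cytokine list had a median change from control of 4.57 with LPS alone, and 11 of its 18 genes were lower with torin1 than without it and 1 was higher. Il1b reached 4309.6, 1332 and 2356 CPM with LPS alone, and its difference was -1.86 (adjusted p = 0.0106). For Il1a the difference was -2.20 (adjusted p = 0.00231). Tnf (-0.37, adjusted p = 0.207), Cxcl2 (-0.68, adjusted p = 0.103), Ccl3 (-0.07, adjusted p = 0.839) and Csf3 (-0.65, adjusted p = 0.0858) were not called different. Cxcl10, a chemokine induced by interferon (chromosome 5, 92346638 to 92348889, minus strand), had 39.9, 62.7 and 51.8 CPM in the controls, 1483, 2256 and 1769.7 CPM with LPS alone and 121, 374 and 88.3 CPM with LPS plus torin1. It rose from control by 1.70 (SE 0.32, adjusted p = 0.00297) and differed from LPS alone by -3.45 (adjusted p = 0.000768), so that the treated libraries lay above all controls and below all those with LPS alone.

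Nearly all counted interferon-stimulated genes rose. Of the 47 counted, 46 were higher and none lower, with a median of 1.86, and 36 to 46 were called with an experiment left out. Gbp5 and Gbp2 encode guanylate-binding proteins, large GTPases that attack vacuoles of pathogens. Gbp2 had 0.659, 2.66 and 1.17 and then 108, 124.4 and 78.4 CPM, a change of 6.18 (SE 0.36, adjusted p = 8.55e-06). Gbp5 had 0.500, 1.35 and 0.489 and then 62.6, 80.9 and 50.3 CPM, a change of 6.42 (SE 0.26, adjusted p = 2.34e-06). Slfn2 went from 167, 322 and 130.2 to 1208, 981 and 888 CPM, a change of 2.37 (SE 0.28, adjusted p = 0.000269). These 3 were not called different from LPS alone (differences of 0.80, adjusted p = 0.0719, -0.05, adjusted p = 0.885 and -0.04, adjusted p = 0.928). Oasl1, which restrains the translation of Irf7, had 108, 226 and 119.7 CPM in the controls, 2067, 1911 and 1623 CPM with LPS alone and 519.8, 803 and 408 CPM with LPS plus torin1, and its difference from LPS alone was -1.77 (adjusted p = 0.00139). Over the list the median with LPS alone was 2.84, and 27 of the 47 genes were lower with torin1 than without it and none higher.

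A core of the interferon-stimulated response element, GAAA, any 2 bases and GAAA, was present on either strand of 21 of the 38 promoters of this list that were searched, against 3.83% of all 8568. Both guanylate-binding protein genes carry it on the other strand, shown here because they rose most in the list.
Gbp5 (chr3:142496759-142496788, plus strand): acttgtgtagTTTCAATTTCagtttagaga
Gbp2 (chr3:142620594-142620623, plus strand): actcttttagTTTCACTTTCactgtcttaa

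Among the regulators of the response, NF-kB subunits and feedback inhibitors had 20 of 25 genes higher and none lower (median 1.72). Socs3, an inhibitor of cytokine signalling, went from 20.2, 13.1 and 10.7 to 711, 882 and 483 CPM, a change of 5.56 (SE 0.21, adjusted p = 2.08e-06), and was lower than with LPS alone (-1.32, adjusted p = 0.00177). Nfkbiz, a co-activator of NF-kB at secondary response genes, changed by 3.91 (SE 0.14, adjusted p = 2.08e-06) and likewise stood below LPS alone (-1.12, adjusted p = 0.00125). Tnfaip2 stood above it (0.49, adjusted p = 0.0199). Of 27 MAP kinase phosphatases and immediate early factors, 12 (44.4%) were higher and 2 (7.41%) lower, against 21.8% and 22.1% of all genes. Without experiment 2 the counts were 12 and 8. Atf3, a repressor of cytokine genes, had 92.0, 113.01 and 36.4 and then 785, 1099 and 653 CPM, a change of 3.53 (SE 0.23, adjusted p = 1.40e-05), and was higher than with LPS alone (0.87, adjusted p = 0.0212). Fos and Klf4 fell (changes of -2.11, SE 0.26, adjusted p = 0.000311 and -2.92, SE 0.34, adjusted p = 0.000245). Myc had 5.23, 3.47 and 3.82 and then 22.9, 25.9 and 17.4 CPM, a change of 2.39 (SE 0.25, adjusted p = 0.000149).

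Toll-like receptor components had 18 of 32 genes (56.2%) higher and 3 (9.38%) lower, against 21.8% and 22.1% of all genes. Their median was 0.50. Without experiment 3 the counts were 11 and 1. Cd14, the co-receptor of LPS, went from 1948, 1624 and 1477 to 3768, 4275 and 3083 CPM, a change of 1.14 (SE 0.14, adjusted p = 0.000295). Irak2, a kinase of the receptor complex, rose by 2.25 (SE 0.16, adjusted p = 2.25e-05) and was above its level with LPS alone (0.75, adjusted p = 0.0116). Tlr9, the receptor of bacterial DNA, and Irf5 fell (changes of -1.72, SE 0.16, adjusted p = 7.48e-05 and -1.09, SE 0.23, adjusted p = 0.00489), and both were called lower than with LPS alone as well. Ptgs2, the inducible cyclooxygenase, had 45.4, 27.0 and 64.2 and then 2379.9, 1641 and 2299 CPM, a change of 5.59 (SE 0.21, adjusted p = 2.08e-06), whereas Ptgs1, the constitutive enzyme, fell by 1.90. Odc1, the first enzyme of polyamine synthesis, rose by 3.59 (SE 0.16, adjusted p = 3.22e-06). Of 30 genes of antigen presentation and costimulation 17 were higher and 1 lower, among them Cd274 (PD-L1), which went from 2.05, 7.95 and 3.31 to 103, 166 and 123.1 CPM. The call of Irf5 against control was lost without experiment 1 or 3.

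Of 25 macrophage identity genes 11 (44%) were higher and 5 (20%) lower, against 21.8% and 22.1% of all genes, with a median of 0.28 that was -0.01 when scaled to library totals. Csf1r, the receptor of the growth factor M-CSF, had 4413, 2884 and 3393 and then 1299, 1264 and 1158 CPM, a change of -1.51 (SE 0.17, adjusted p = 0.000228). The treated libraries were close together and below every control. Fcgr2b, the inhibitory receptor of immunoglobulin G, had 6.30, 10.1 and 9.74 and then 181, 211 and 341 CPM, a change of 4.79 (SE 0.19, adjusted p = 2.29e-06), and stood above LPS alone (1.70, adjusted p = 0.000743). Cebpb rose (2.23, SE 0.27, adjusted p = 0.000307) while its relative Cebpa fell (-1.69, SE 0.16, adjusted p = 9.96e-05). Lyz2 (lysozyme), with 11490.0, 11675 and 12299 and then 9878, 7039.7 and 8774 CPM, changed by -0.48 (SE 0.16, adjusted p = 0.0365). The call of Lyz2 against control was lost without the block or without experiment 1 or 3.

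**Figure D2:**
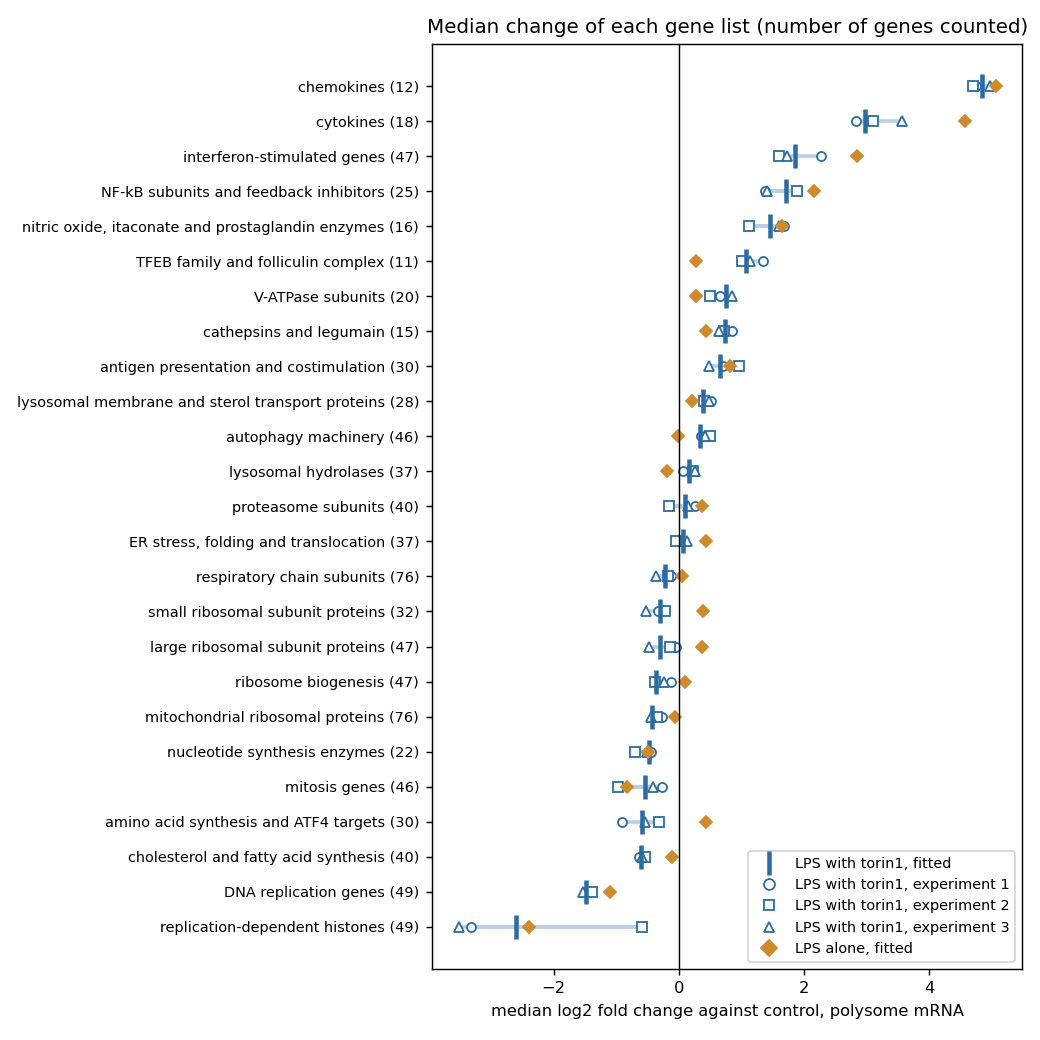
Median log2 fold change in polysome-associated mRNA against control for 25 gene lists, with the number of genes counted in brackets. Bars give LPS plus torin1 over the 3 experiments, open symbols each experiment, and diamonds LPS alone; immune lists lie on the right (chemokines 4.85), TFEB, V-ATPase and cathepsin lists at 1.07, 0.75 and 0.74, and the replication-dependent histones on the left with experiment 2 at -0.58 against -3.32 and -3.52.

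Lysosome and autophagy genes made up a further group of rises. On the study's lysosome pathway list 52 of the genes counted (46%) were higher, 10 (8.85%) lower and 51 not called, against 21.8% and 22.1% of all genes, and the median was 0.36. With an experiment left out 42 (without 1), 58 (without 2) and 21 (without 3) were higher. With library totals as the scale, 33 were higher and 22 lower. Summed over the list, 23140 to 25120 CPM in the control libraries stood against 37660 to 43090 CPM in the treated ones. Ctsd, the aspartic protease cathepsin D (chromosome 7, 142375911 to 142388038, minus strand), had 2096, 2042 and 2009 and then 4896, 5319 and 6207 CPM, a change of 1.41 (SE 0.14, adjusted p = 9.58e-05). Ctsb, the cysteine protease cathepsin B, had 3016, 3252 and 2600.2 and then 7646, 6482 and 7787 CPM, a change of 1.31 (SE 0.15, adjusted p = 0.000241). Both ordered the groups alike in every experiment, with control lowest and LPS plus torin1 highest, and both were called above LPS alone (0.98, adjusted p = 0.00226 and 0.65, adjusted p = 0.0178). Ctsk, the cathepsin of bone resorption, and Acp5, the tartrate-resistant acid phosphatase, had the largest rises of the list, of 2.69 (SE 0.26, adjusted p = 0.000103) and 3.08 (SE 0.43, adjusted p = 0.000608), from control levels of at most 4.19 CPM. Of 15 cathepsins and legumain 10 were higher and none lower (median 0.74), and 6 were higher without experiment 3.

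The V-ATPase is the proton pump that acidifies the lysosome for its hydrolases. Of 20 V-ATPase subunit genes 13 were higher and 1 lower (median 0.75), and 6 to 14 were higher with an experiment left out. Atp6v0a1 had 58.7, 51.9 and 55.1 and then 182, 255 and 283 CPM, a change of 2.10 (SE 0.16, adjusted p = 2.79e-05). Atp6v0d2, the subunit isoform of osteoclasts and macrophages, had 2.00, 6.89 and 4.92 and then 11.04, 16.3 and 23.8 CPM, a change of 1.98 (SE 0.25, adjusted p = 0.000408). Atp6v0b, a subunit of the membrane sector, had 458, 375 and 402 and then 617, 675 and 537 CPM, a change of 0.56 (SE 0.13, adjusted p = 0.00852). Tcirg1, another isoform of the membrane sector, rose by 1.36 (SE 0.23, adjusted p = 0.00157), and Atp6v0e2 was the subunit gene that fell (-0.91, SE 0.12, adjusted p = 0.000439). Of 37 hydrolase genes 11 (29.7%) were higher and 3 (8.11%) lower, against 21.8% and 22.1% of all genes. Their median of 0.17 turned to -0.12 with library totals as the scale, and without experiment 3 the counts were 3 and 0. With LPS alone none of the 37 was higher and 8 were lower, and 14 were called higher with torin1 than without it and none lower. Gla, alpha-galactosidase A, had 47.4, 62.7 and 43.6 CPM in the controls, 66.7, 54.5 and 42.4 CPM with LPS alone and 148, 88.0 and 130.3 CPM with LPS plus torin1, a rise of 1.24 (SE 0.23, adjusted p = 0.00269) over control and of 1.18 (adjusted p = 0.00871) over LPS alone. Sgsh, heparan sulfamidase, had 35.9, 21.4 and 32.2, 3.68, 6.28 and 7.602 and 11.1, 14.2 and 14.2 CPM in the same order of groups. It fell from control (-1.19, SE 0.27, adjusted p = 0.00709) but was higher than with LPS alone (1.19, adjusted p = 0.0164). The calls of Atp6v0b and Sgsh against control were lost without experiment 3.

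Lysosomal membrane proteins had 14 of 28 genes higher and 3 lower, and 7 and 0 without experiment 3. Lamp1 and Lamp2, the main glycoproteins of the membrane, had changes of 0.55 (SE 0.12, adjusted p = 0.0053) and 0.99 (SE 0.15, adjusted p = 0.000924). Mcoln2, a cation channel of the mucolipin family, had 0.546, 9.46 and 5.45 and then 88.9, 264 and 375 CPM, a change of 5.93 (SE 0.41, adjusted p = 1.75e-05) that rested in experiment 1 on a control level far below the others. Litaf rose by 2.58 (SE 0.16, adjusted p = 1.02e-05). Laptm5 fell (-0.74, SE 0.19, adjusted p = 0.0138). Npc2, the soluble carrier of lysosomal cholesterol, went from 279, 327 and 244 to 666, 841 and 474 CPM, a change of 1.19 (SE 0.13, adjusted p = 0.000149), and Slc11a2, an iron transporter, rose by 2.00 (SE 0.13, adjusted p = 1.26e-05). Neither was called different from LPS alone (-0.25, adjusted p = 0.175 and 0.25, adjusted p = 0.18). Ctsc, an activator of granule proteases, rose (0.99, SE 0.13, adjusted p = 0.000405) and was lower than with LPS alone (-1.57, adjusted p = 0.000516), at 872, 556 and 611 CPM there against 268, 191 and 221 CPM with torin1. The calls of Lamp1 and Laptm5 against control were lost without experiment 1 or 3.

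The motif GTCACGTG, the core of the element that TFEB reads, was present on either strand in 5% of the 8568 promoters and in 20 of the 90 lysosome pathway promoters searched. It was found in 3 of 11 cathepsin, 6 of 29 hydrolase, 5 of 23 membrane protein and 2 of 14 V-ATPase promoters. Nearer to the share of all promoters were the autophagy machinery, with 3 of 38 (7.89%), and the TFEB family and its partners, with 1 of 10 (10%). Members with values here are shown with 10 bases on either side and the motif in capitals, read on the other strand where it appears as CACGTGAC. Sgsh is shown because it fell although its promoter holds the motif.
Ctsd (chr7:142387908-142387935, minus strand): gcccgcgtctCACGTGACccgttgaggg
Gla (chrX:134601184-134601211, minus strand): tgagatctcgGTCACGTGagcaactctc
Atp6v0b (chr4:117887350-117887377, minus strand): gtgcgcggggGTCACGTGgggtcggcgc
Lamp1 (chr8:13159123-13159150, plus strand): tgccgactggCACGTGACcacatcacgt
Sgsh (chr11:119355522-119355549, minus strand): gcctgccgtgCACGTGACcgtggggagc

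Of the 11 genes of the TFEB family and its partners 9 were higher and 2 lower, with a median of 1.07 against 0.28 with LPS alone. Tfec, a family member of macrophages and osteoclasts, had 12.3, 25.5 and 21.5 and then 126, 117.1 and 111.5 CPM, a change of 2.59 (SE 0.27, adjusted p = 0.000127). Mitf had 79.5, 80.6 and 79.3 and then 201, 136.03 and 175 CPM, a change of 1.07 (SE 0.15, adjusted p = 0.00072). Tfeb itself fell, from 37.2, 18.9 and 29.9 to 5.25, 7.49 and 3.76 CPM, a change of -2.41 (SE 0.31, adjusted p = 0.000408), and it was at 3.84, 4.53 and 3.11 CPM with LPS alone. The family members therefore moved in opposite directions. Fnip2 and Fnip1, partners of folliculin in the control of RagC and of TFEB, rose by 1.98 (SE 0.27, adjusted p = 0.000596) and 1.80 (SE 0.26, adjusted p = 0.000751), and both were higher than with LPS alone (0.91, adjusted p = 0.0398 and 1.09, adjusted p = 0.0174). Rragc, which encodes RagC, had 108, 149 and 127 and then 373, 332 and 348 CPM, a change of 1.46 (SE 0.16, adjusted p = 0.000192). Gpnmb, a glycoprotein that MITF induces, had 515, 1936 and 1355 and then 1475, 4213 and 4314 CPM, a change of 1.45 (SE 0.18, adjusted p = 0.000342). Its levels varied several-fold between experiments in both groups. The call of Gpnmb against control was lost without the block.

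Autophagy machinery genes were higher for 23 of 46 and lower for 2 (median 0.35), while with LPS alone 10 were higher and 9 lower. The difference from LPS alone was called upwards for 19 and downwards for 1. Sqstm1, the p62 receptor of ubiquitinated cargo, had 355, 357 and 269 CPM in the controls, 1058, 1083 and 834 CPM with LPS alone and 2134, 1851 and 2098 CPM with LPS plus torin1. It rose by 2.65 (SE 0.15, adjusted p = 8.55e-06) over control and by 1.05 (adjusted p = 0.00234) over LPS alone. Tecpr1, which tethers autophagosomes to lysosomes, had 28.2, 25.4 and 23.8, 20.4, 44.7 and 18.3 and 62.2, 188 and 114 CPM, a rise of 2.08 (SE 0.32, adjusted p = 0.00096) over control. Its change with LPS alone was -0.05 (adjusted p = 0.916). Gabarap, an autophagosome marker protein of the ATG8 family, rose by 1.02 (SE 0.18, adjusted p = 0.00219). The count of higher genes was 19 without experiment 1, 25 without 2 and 11 without 3. The call of Gabarap against control was lost without experiment 3.

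**Figure D3:**
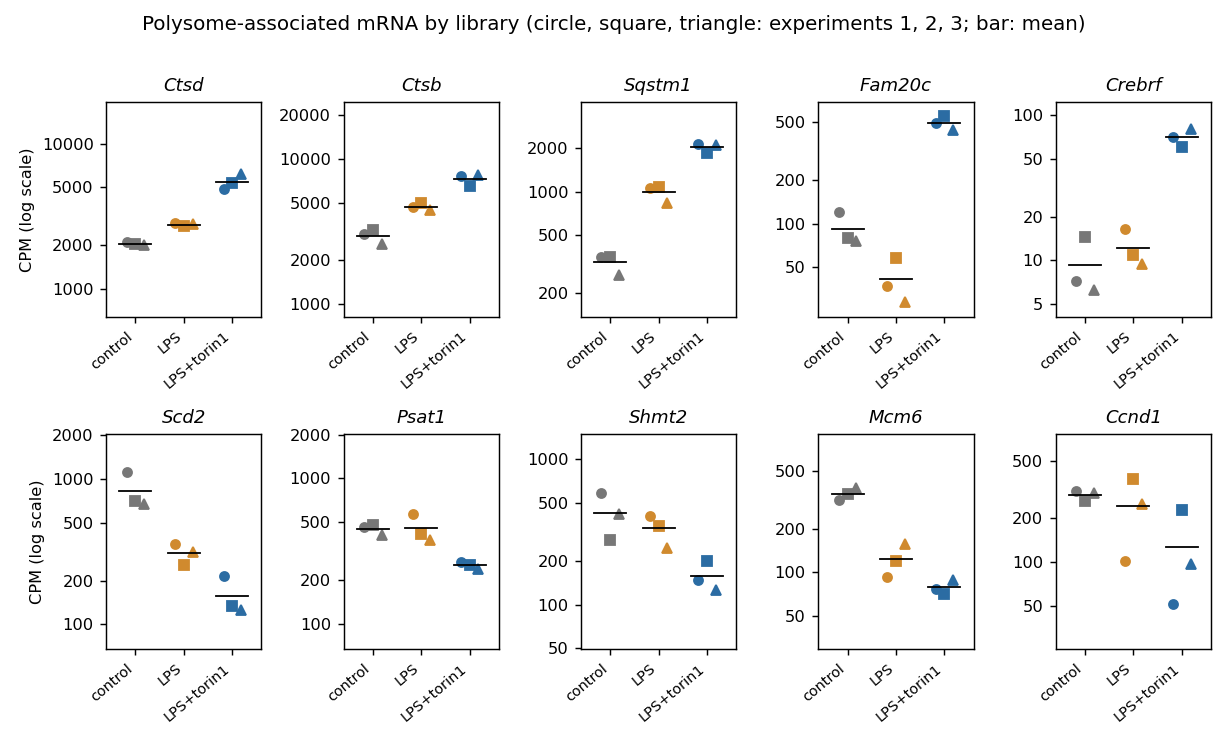
Levels of 10 lysosomal, metabolic and growth genes in polysome-associated mRNA, in CPM on a log axis, for control, LPS and LPS plus torin1 libraries (circle, square and triangle for experiments 1, 2 and 3, bars for the means). Ctsd, Ctsb, Sqstm1, Fam20c and Crebrf were highest and Scd2, Psat1, Shmt2 and Mcm6 lowest with LPS plus torin1; Ccnd1 overlapped between LPS and LPS plus torin1.

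Some genes were called with LPS plus torin1 and not with LPS alone, by a rule that asked for a call against control and against LPS alone in the same direction and for an adjusted p over 0.25 with LPS alone. It was met by 292 genes upwards and 251 downwards, and since the rule uses both contrasts this count is a description. Crebrf, a regulator of the unfolded protein response and of metabolism (chromosome 17, 26715650 to 26776635, plus strand), had 7.23, 14.5 and 6.26 CPM in the controls, 16.3, 10.96 and 9.39 CPM with LPS alone and 70.9, 60.6 and 80.8 CPM with LPS plus torin1, a rise of 2.98 (SE 0.34, adjusted p = 0.000225). Cd33, a lectin that binds sialic acid, had 20.1, 30.96 and 22.0, 21.2, 30.6 and 20.7 and 149.8, 163 and 160.2 CPM, a rise of 2.72 (SE 0.15, adjusted p = 7.28e-06). Hbp1, a repressor of cell-cycle genes, had 28.9, 41.8 and 28.0, 47.3, 28.1 and 22.9 and 215, 130.4 and 162 CPM, a rise of 2.33 (SE 0.26, adjusted p = 0.000213). In these 3 the treated libraries lay above all 6 others. Egr2, the inhibitory receptor Pirb and Hspbap1 completed the 6 largest rises (log2 fold changes of 2.38 to 2.58). Among the largest falls were those of Pmepa1, an inhibitor of TGF-beta signalling, the proton-sensing receptor Gpr65, Shmt2, the cyclin D gene Ccnd3 and the scaffold Sh3pxd2a, with changes from -2.21 to -1.37. Shmt2, the mitochondrial enzyme that takes serine into the folate cycle, had 590.0, 279 and 422 and then 147, 199 and 126 CPM, a change of -1.43 (SE 0.27, adjusted p = 0.00281). Ccnd3 had 52.3 CPM in the second treated library and 16.5 and 15.5 CPM in the others. The call of Ccnd3 against control was lost without the block or without experiment 1 or 3.

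Other genes were called in all 3 contrasts, and in 89 of them the changes from control with and without torin1 were in opposite directions. Fam20c, the kinase of secreted proteins (chromosome 5, 138754514 to 138810077, plus strand), had 121, 79.4 and 76.2 CPM in the controls, 37.4, 58.2 and 28.8 CPM with LPS alone and 491, 546 and 440.5 CPM with LPS plus torin1. It fell with LPS alone (-1.18, adjusted p = 0.00337) and rose with LPS plus torin1 (2.42, SE 0.23, adjusted p = 8.38e-05). Dirc2, a transporter of the lysosomal membrane, had 2.57, 2.63 and 2.48, 1.61, 2.06 and 1.32 and 15.4, 19.4 and 17.2 CPM in the same order, and rose by 2.75 (SE 0.18, adjusted p = 1.26e-05). F10, coagulation factor X (chromosome 8, 13037308 to 13056676, plus strand), had 0.932, 1.55 and 0.827, 27.6, 12.9 and 10.51 and 178, 97.3 and 117.2 CPM, a rise of 6.84 (SE 0.38, adjusted p = 7.28e-06) over control and of 3.02 (adjusted p = 0.000794) over LPS alone. F7, coagulation factor VII and a neighbour of F10, went the same way, from 0.296, 0.113 and 0.113 to 7.85, 4.24 and 5.87 CPM. Pdcd1, which encodes PD-1, rose with LPS alone (2.02, adjusted p = 0.00133) and fell with LPS plus torin1 (-2.19, SE 0.34, adjusted p = 0.00114). The endothelial lipase gene Lipg had 0.273, 0.135 and 0.244, 54.9, 40.2 and 24.1 and 1.13, 2.45 and 1.04 CPM in control cells, with LPS alone and with LPS plus torin1, a rise of 2.74 (SE 0.44, adjusted p = 0.00126) over control that was smaller than the rise of 7.41 with LPS alone (difference -4.67, adjusted p = 0.000468).

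Lists of growth metabolism had more genes lower than higher. Of 40 genes of cholesterol and fatty acid synthesis 26 were lower and 1 higher (median -0.60 against -0.03 over all genes), and 17, 28 and 9 were lower without experiments 1, 2 and 3 and 14 without the block. Scd2, a desaturase of fatty acids, had 1110.4, 703 and 670.3 and then 214, 134 and 125.2 CPM, a change of -2.39 (SE 0.15, adjusted p = 1.03e-05), and Elovl6, which elongates them, a change of -2.08 (SE 0.18, adjusted p = 5.33e-05). Both lay below LPS alone too (-1.001, adjusted p = 0.00242 and -1.01, adjusted p = 0.00581). Fasn, fatty acid synthase, had 1139.5, 646 and 681 and then 526, 587 and 311 CPM, a change of -0.80 (SE 0.20, adjusted p = 0.0116). Sqle, a rate-setting enzyme of sterol synthesis, changed by -0.76 (SE 0.10, adjusted p = 0.000573). Over the list 20 genes were lower than with LPS alone and none higher. The call of Fasn against control was lost without the block or without experiment 1 or 3.

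Amino acid synthesis genes and ATF4 targets had opposite medians with and without torin1, -0.59 and 0.44. Against control 12 of 30 were lower and 3 higher, or 19 and 4 without experiment 2 and 8 and 1 without experiment 3, and against LPS alone 20 were lower and none higher. Psat1, of the serine pathway, had 465, 478 and 407 CPM in the controls, 571, 416 and 378 CPM with LPS alone and 265, 252 and 238 CPM with LPS plus torin1, a change of -0.84 (SE 0.14, adjusted p = 0.00134). The treated libraries were all below all 6 others. Asns, asparagine synthetase, rose with LPS alone (0.79, adjusted p = 0.00743) and was not called with LPS plus torin1 (-0.14, SE 0.17, adjusted p = 0.548). Ddit4, which encodes the mTORC1 inhibitor REDD1, had 2.14, 1.10 and 1.84 CPM in the controls, 21.9, 14.7 and 4.44 CPM with LPS alone and 0.592, 0.676 and 0.244 CPM with LPS plus torin1, a change of -1.88 (SE 0.51, adjusted p = 0.0177). Slc7a11, the cystine carrier and also a target of NRF2, was among the exceptions: it had 44.5, 47.1 and 61.7 and then 587, 229 and 738 CPM, a rise of 3.19 (SE 0.31, adjusted p = 8.99e-05). Of 22 tRNA synthetase genes 8 (36.4%, against 22.1% of all genes) were lower and 1 higher. The counts were 2, 9 and 1 lower without experiments 1, 2 and 3 and 3 without the block. The call of Ddit4 against control was lost without experiment 1 or 3.

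Nucleotide synthesis enzymes were lower for 14 of 22 and higher for 1, the p53-regulated ribonucleotide reductase subunit Rrm2b, and 7 were lower without experiment 3. Dhodh and Umps, of the pyrimidine pathway, changed by -1.65 (SE 0.20, adjusted p = 0.000277) and -1.62 (SE 0.13, adjusted p = 2.97e-05), and Cad, its first enzymes and a substrate of S6 kinase, by -0.85 (SE 0.17, adjusted p = 0.00362). Of 35 genes of glycolysis, hypoxia and the pentose phosphate pathway 5 (14.3%) were higher and 11 (31.4%) lower, against 21.8% and 22.1% of all genes. The lower ones were 7, 16 and 4 without experiments 1, 2 and 3. Pdk1, which restrains pyruvate dehydrogenase, fell from 70.9, 81.7 and 81.9 to 24.4, 21.8 and 25.9 CPM (-1.71, SE 0.14, adjusted p = 3.91e-05), and Ndrg1, a hypoxia and stress gene, rose from 17.2, 26.6 and 14.96 to 171, 100.3 and 192 CPM (2.98, SE 0.34, adjusted p = 0.000229). Hk3, the hexokinase of myeloid cells, rose by 2.16 (SE 0.18, adjusted p = 4.39e-05). Mitochondrial ribosomal proteins were lower for 36 of 76 and higher for 2 (median -0.42), with 18, 42 and 7 lower when experiments 1, 2 and 3 were left out. Respiratory chain subunits were lower for 15 of 76 and higher for 1, a share of 19.7% that lies near the 22.1% of all genes. That count was 5, 34 and 0 without experiments 1, 2 and 3, 8 without the block and 48 with library totals as the scale. Enzymes of the citric acid cycle, pyruvate and glutamine were lower for 6 of 32 (18.8%) and higher for 2, and 1, 9 and 0 were lower without experiments 1, 2 and 3. Of 37 genes of endoplasmic reticulum folding and stress 3 (8.11%) rose and 3 (8.11%) fell, against 21.8% and 22.1% of all genes. LPS alone had 20 of them higher and 1 lower. The counts with LPS plus torin1 were 12 and 6 without experiment 2 and 2 and 13 with library totals as the scale. Hspa5, the chaperone BiP, had 1074, 617 and 926 CPM in the controls, 2102, 1952 and 1796 CPM with LPS alone and 1106, 853 and 1071 CPM with LPS plus torin1, so that the treated level overlapped with control and lay below LPS alone (-0.96, adjusted p = 0.00513). The call of Cad against control was lost without experiment 3.

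Genes of DNA replication fell as a group. Of 49, 46 (93.9%) were lower and none higher, with a median of -1.49 and medians within the experiments of -1.49, -1.40 and -1.53, and 41 to 45 were lower with an experiment left out. Tk1, thymidine kinase (chromosome 11, 117815526 to 117826092, minus strand), had 159, 138 and 170.1 and then 9.94, 13.4 and 14.97 CPM, a change of -3.63 (SE 0.20, adjusted p = 7.28e-06). Mcm6, a subunit of the replicative helicase, had 315, 347 and 379 and then 76.9, 70.4 and 88.6 CPM, a change of -2.14 (SE 0.15, adjusted p = 1.55e-05). Ccne2, the cyclin of entry into S phase, changed by -3.15 (SE 0.18, adjusted p = 7.69e-06). In each, all 3 treated libraries lay well below all controls, and each was below LPS alone as well (-0.89, adjusted p = 0.011, -0.62, adjusted p = 0.016 and -0.64, adjusted p = 0.0271). Mitosis genes were lower for 28 of 46 and higher for 1, with a median of -0.54 against -0.82 with LPS alone, and 8 were higher than with LPS alone and none lower. Against control 23, 23 and 12 were lower without experiments 1, 2 and 3 and 17 without the block. Aurkb, a mitotic kinase, fell (-1.61, SE 0.15, adjusted p = 8.09e-05), and Mki67, the proliferation marker Ki-67, had 403, 549 and 746 and then 273, 189.5 and 547 CPM, a change of -0.85 (SE 0.20, adjusted p = 0.0096). Ccnd1, the cyclin D that growth factors induce, had 312, 265 and 299 and then 51.8, 229 and 97.8 CPM, a change of -1.55 (SE 0.41, adjusted p = 0.0151). The second treated library was far above the others. Ccng2, a cyclin of resting cells, rose by 2.41 (SE 0.23, adjusted p = 8.46e-05). The calls of Mki67 and Ccnd1 against control were lost without the block, and that of Ccnd1 without experiment 1 or 3.

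Replication-dependent histone mRNAs, which have no poly(A) tail and were captured because the libraries were made from RNA depleted of ribosomal RNA, fell further. All 49 were negative and 47 were called lower, with a median of -2.61, and their share of the polysome counts was 1.40%, 0.781% and 1.03% in control cells and 0.147%, 0.411% and 0.0868% with LPS plus torin1. Experiment 2 differed from the others, with a median of -0.58 against -3.32 and -3.52. Without the block 35 were called, and without experiments 1, 2 and 3 the counts were 21, 49 and 23. Hist1h1a, a linker histone gene, had 1360.5, 1089 and 1024 and then 135.9, 199 and 89.5 CPM, a change of -3.09 (SE 0.22, adjusted p = 1.83e-05). Its levels were separated between the groups in every experiment, with the second treated library highest of its group. Many histone genes are near-identical, and reads may be split among them. With LPS alone 46 of the 49 were lower (median -2.39), and the difference of LPS plus torin1 from LPS alone was called for 1.

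Polysome and total mRNA of the same lysates moved together. In total mRNA 6303 genes (56.1%) were called between LPS plus torin1 and control, 3131 higher (27.8%) and 3172 lower (28.2%). Of the 4931 genes called in polysomes 4478 were also called in total mRNA, 4472 in the same direction, and across 11243 genes, which are not independent replicates, the changes had a Pearson correlation of 0.947. The difference between the polysome change and the total change passed the threshold for 0 genes (0%) in edgeR's interaction test, where 820 had an unadjusted p under 0.05, of which 703 (6.25% of all genes) were lower in polysomes than total mRNA would give. DESeq2's test called 20, all lower, but its default filter on mean count leaves many genes without an adjusted p. Without experiment 2 the edgeR test called 380, 13 higher and 367 lower. Those lower included 34 of the 49 histone genes, and those higher included 5 mitochondrially encoded genes, such as mt-Nd1.

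**Figure D4:**
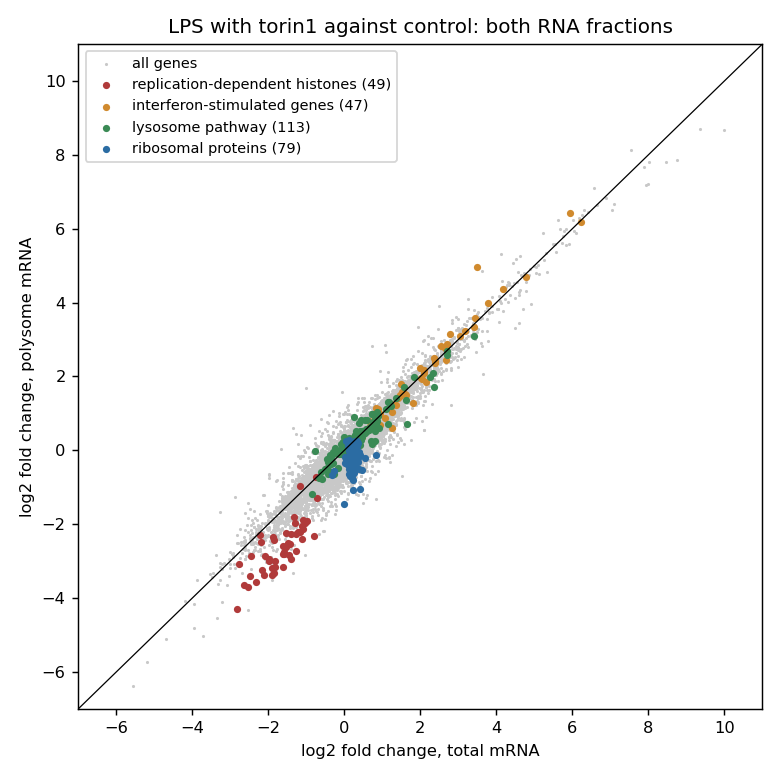
Log2 fold change between LPS plus torin1 and control in total mRNA (horizontal) and polysome-associated mRNA (vertical) for 11243 genes in grey, with histone, interferon-stimulated, lysosome pathway and ribosomal protein genes in colour and the line of equal change. Most genes lie along the line; ribosomal protein genes lie below it, at medians of 0.19 in total and -0.30 in polysome-associated mRNA.

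Ribosomal proteins, the main class of TOP mRNAs, and the histones had the lowest medians of the difference between the polysome and the total change among the gene lists. For the histones it was -0.89, negative for 46 of 49, of which 13 had an unadjusted p under 0.05 downwards. Within experiments 1, 2 and 3 the histone medians were -1.45, 0.77 and -1.87, so experiment 2 went the other way. Of 79 ribosomal protein genes, 22 were lower and none higher in polysomes (median -0.30), while in total mRNA 18 were higher and none lower (median 0.19). Over all genes 22.1% were lower in polysomes and 27.8% higher in total mRNA. The difference was negative for 77 of the 79, with a median of -0.45 against -0.02 over all genes, and 56 of the 79 had an unadjusted p under 0.05 downwards, against 6.25% of all genes. Its medians for the small and the large subunit were -0.60 and -0.43, and after a correction for transcript length -0.52 and -0.32. None of the 79 passed after adjustment in edgeR, 26 did without experiment 2, and 17 of the 20 genes that DESeq2 called were in this group. DESeq2 adjusted only over genes above its filter on mean count, which keeps abundant genes, so its calls and those of edgeR cover unlike sets of genes. Tpt1, another TOP mRNA, was called there as well, and so were Gm11808 and Rps27rt. The share of polysome counts on the 79 genes was 3.84%, 4.58% and 3.89% in control cells and 2.92%, 3.32% and 2.42% with LPS plus torin1, so each treated library lay below each control. In total mRNA the shares were 3.19%, 3.30% and 2.99% against 3.09%, 3.15% and 2.77%. With LPS alone the polysome shares were 4.49%, 4.15% and 3.77%.

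Rps19, of the small subunit (chromosome 7, 24884371 to 24889806, plus strand), had 381, 454 and 394 and then 263, 301 and 227 CPM in polysomes, a change of -0.64 (SE 0.15, adjusted p = 0.00863), while its change in total mRNA was 0.14 (SE 0.10, adjusted p = 0.259). The difference between them was -0.80 (SE 0.13, adjusted p = 0.229) in edgeR and had an adjusted p of 0.000108 in DESeq2, which adjusted over fewer genes. Rps12 and Rps21 had the largest called falls of the small subunit (-0.76, SE 0.19, adjusted p = 0.0122 and -0.79, SE 0.24, adjusted p = 0.0283). Rpl4 did not follow: it had 1418, 1621 and 1507 and then 1811, 1596 and 1833 CPM, with a change of 0.20 (SE 0.13, adjusted p = 0.251). The number of calls in this group changed with single experiments and with the scale. Without the block 5 of the 79 were lower, without experiments 1, 2 and 3 the counts were 4, 35 (with 7 higher) and 0, with library totals as the scale 55 and after a correction for transcript length 9, while the median stayed between -0.59 and -0.19 in all of these. Of these genes 61 have annotated pseudogenes, whose reads cannot be told apart with certainty. The calls of Rps19, Rps12 and Rps21 against control were lost without experiment 3, and those of Rps12 and Rps21 without the block or without experiment 1.

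**Figure D5:**
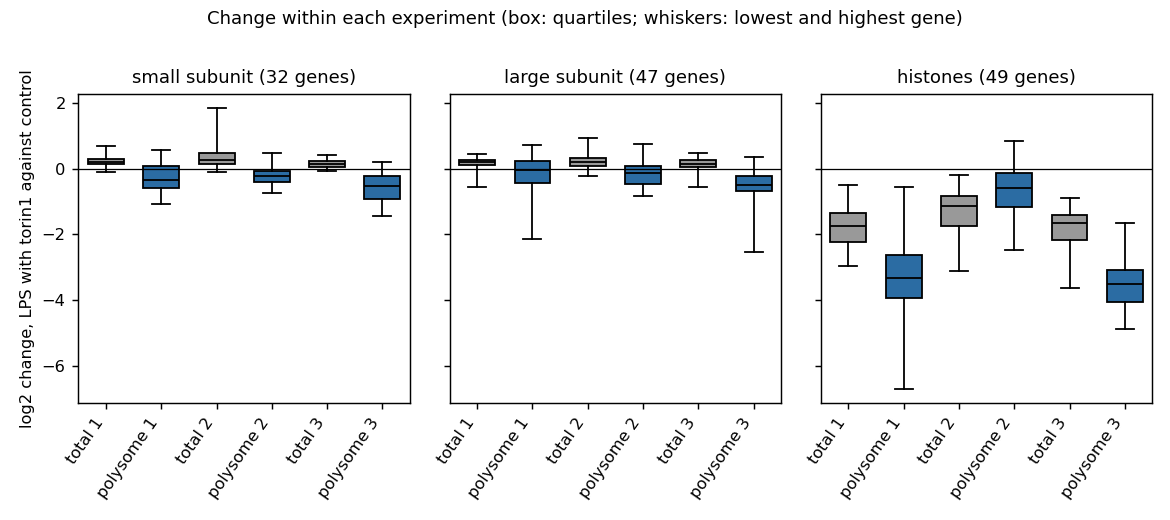
Log2 change between LPS plus torin1 and control within each experiment for small subunit, large subunit and histone genes, in total (grey) and polysome-associated mRNA (blue), with boxes for quartiles and whiskers for the lowest and highest gene. In polysomes the medians of the small subunit were -0.34, -0.23 and -0.52 and those of the large subunit -0.04, -0.13 and -0.48, and the histones of experiment 2 fell less than those of the other experiments.

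Against LPS alone, 47 of the 79 ribosomal protein genes were lower and none higher in polysomes (median -0.67). Of 22 other TOP mRNAs 4 (18.2%) were higher, near the 21.8% of all genes, and 1 was lower in polysomes, with a median of 0.21 that was -0.08 with library totals as the scale. Without experiments 1, 2 and 3 the higher ones were 1, 10 and 0. Eef1a1, elongation factor 1A, had 5059, 5529 and 4472 and then 8564, 7802 and 7769 CPM, a change of 0.68 (SE 0.16, adjusted p = 0.0101), and Eef2 had 3069, 1837 and 2227 and then 3306, 6538 and 3123 CPM, a change of 0.80 (SE 0.29, adjusted p = 0.0492). Of 44 initiation factors and regulators 8 (18.2%) were higher and 6 (13.6%) lower, below the 21.8% and 22.1% of all genes. The counts were 4 and 3, 18 and 9, and 2 and 1 without experiments 1, 2 and 3. Pdcd4, an inhibitor of the helicase eIF4A, had 2.93, 3.51 and 2.89 CPM in the controls, 1.52, 1.40 and 1.38 CPM with LPS alone and 8.39, 6.35 and 10.3 CPM with LPS plus torin1, a rise of 1.41 (SE 0.22, adjusted p = 0.00112). Ppp1r15a (GADD34), which restores eIF2, rose by 2.45 (SE 0.20, adjusted p = 4.35e-05), and Eef2k, the kinase of Eef2, fell (-1.57, SE 0.19, adjusted p = 0.000342). Ribosome biogenesis genes were lower for 18 of 47 and higher for none (median -0.37), with 13, 19 and 3 lower when experiments 1, 2 and 3 were left out. Rrp1b and Ubtf, of ribosomal RNA processing and transcription, had changes of -1.54 (SE 0.15, adjusted p = 0.000103) and -1.15 (SE 0.15, adjusted p = 0.00042). The call of Eef1a1 against control was lost without experiment 1, and those of Eef1a1 and Eef2 without experiment 3, and that of Eef2 without experiment 2.

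Of 17 genes of the BCL2 family of survival regulators 7 (41.2%) were higher and 5 (29.4%) lower, and 3, 7 and 1 were lower without experiments 1, 2 and 3. Of 16 genes of iron handling 7 (43.8%) were higher and 2 (12.5%) lower, against 21.8% and 22.1% of all genes. Mcl1, an anti-apoptotic BCL2 relative, had 357, 428 and 315 CPM in the controls, 714, 632 and 704 CPM with LPS alone and 1369.8, 1176 and 1438 CPM with LPS plus torin1, a rise of 1.86 (SE 0.16, adjusted p = 5.41e-05). Bcl2l1 (BCL-XL) rose by 2.62 (SE 0.17, adjusted p = 1.27e-05), and Pmaip1 (NOXA), which opposes them, fell (-0.97, SE 0.15, adjusted p = 0.000951). Fth1, the heavy chain of ferritin, had 458, 735 and 513 and then 1852, 1822 and 1795 CPM, a rise of 1.71 (SE 0.16, adjusted p = 8.83e-05), and Hmox1, haem oxygenase, rose by 1.93 (SE 0.14, adjusted p = 2.21e-05). Steap3, a reductase of endosomal iron, fell (-2.68, SE 0.23, adjusted p = 5.27e-05). Of 24 NRF2 targets 7 (29.2%) were higher and 4 (16.7%) lower, and 8 were lower without experiment 2. Of 40 proteasome genes 4 (10%) were higher and 5 (12.5%) lower, and without experiment 2 the counts were 17 and 7. Abca1, the exporter of cholesterol, rose by 2.17 (SE 0.22, adjusted p = 0.000108), while Scarb1 and the lipoprotein lipase gene Lpl fell (-1.23, SE 0.14, adjusted p = 0.000232 and -0.87, SE 0.16, adjusted p = 0.00251). The call of Pmaip1 against control was lost without experiment 3.

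The 10 genes with the most reads in the treated polysomes were Ccl9, Ccl3, Lyz2, Actb, Eef1a1, Ctsb, mt-Co1, Irg1, Ctsd and Tnfrsf1b, an order that is not corrected for length. Tnfrsf1b, receptor 2 of tumour necrosis factor (chromosome 4, 145213463 to 145246870, minus strand), entered it from 63.1, 64.3 and 57.7 CPM in the controls to 5991, 4796 and 5348 CPM, a rise of 6.44 (SE 0.21, adjusted p = 1.57e-06), and it was higher than with LPS alone (0.70, adjusted p = 0.0196). Actb, beta-actin, had 7444, 5964 and 6636 and then 6974, 9019 and 8146 CPM, with a change of 0.26 (SE 0.16, adjusted p = 0.221).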

How the data were processed

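RAW264.7 cells were measured as 6 polysome libraries, with the LPS-alone polysome libraries and the total mRNA libraries beside them. According to the methods and the submitters' processing notes, the authors removed ribosomal RNA, sequenced stranded libraries paired-end, used Hisat2 for alignment against GRCm38 and obtained gene counts from featureCounts. The deposited values are raw counts of protein-coding genes without normalization, and genes with 0 counts in any library had been removed, so genes silent in one group are missing. Versions of these tools and the strand setting are not given in the sources used here.

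Counts were tested in R 4.3.3 with edgeR 4.0.16 (TMM, glmQLFit and glmQLFTest, limma 3.58.1), with all 9 polysome libraries in one model and the experiment as a block, since the comparison was defined as paired by replicate number. The difference between polysome and total changes was the interaction of RNA type and treatment over all 18 libraries, with a block per lysate. DESeq2 1.42.0 was an alternative, with its default filter on mean count, which leaves genes below it without an adjusted p. The other alternatives were the fit without the block, other scalings and filters, a threshold of 0.25 (the study's FDR), each experiment left out, the model without the LPS-alone libraries and, chosen after seeing the data, a correction for transcript length.

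The members and gene lists were chosen with earlier results of these data known. The lysosome pathway list is the study's own. The text names the 10 largest called rises and falls with the same direction in all experiments and at least 5 CPM, the extreme and the most abundant called members of each list, the genes the study names, and the largest changes seen with torin1 but not with LPS alone or in all 3 contrasts; Csf1r, Adgre1, Myc, Mitf, Fnip1, Sqle, Asns and the mitochondrial genes were added after their values were seen, and a few genes that this rule gives are not reported here. Symbols of 11088 of 11243 genes matched 1 gene of GENCODE M21, which gave coordinates. Counts were also simulated from these libraries, with the log2 fold change set to 2 for 200 of the 11243 genes. The simulated counts held no effect of experiment or lysate, unlike the real ones. The edgeR test of the polysome comparison recovered 93.5% of these 200 and that of the interaction 87%. Of the 198 and 183 genes called in these tests, 11 and 9 were not among the 200. Smaller changes were not simulated. The shares recovered therefore do not tell how often a difference as small as the ribosomal protein median of -0.45 would be called.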

Additional observations from a re-analysis of the deposited data

How the results depend on the processing

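Under every alternative the genes called both there and in the reported comparison kept their direction, and no named gene reversed. The comparison of LPS plus torin1 with control called 7451 genes at an adjusted p of 0.25, 3897 of them lower, and scaled to library totals 1574 higher and 4407 lower. In a model of these treatments alone, without the LPS-alone libraries, 3349 genes were called in place of 4931, 1785 higher and 1564 lower. At 0.25, LPS alone against control called 7062 genes, LPS plus torin1 against LPS 5587 and the difference between polysome and total changes 3. DESeq2 called 20 genes for that difference. In a model without the control libraries, LPS plus torin1 against LPS called 5647. With an experiment left out, the polysome comparison called 2003 to 6713 genes (1171 to 3287 higher, 832 to 3426 lower), the difference between polysome and total changes 0 to 380, LPS alone 1965 to 6236 and LPS plus torin1 against LPS 205 to 4251. Without experiment 3 the calls were fewest in these polysome contrasts, and without experiment 2 most, and the cause was not tested. Apart from the fit without the block, all other alternatives stayed within 1.5 times of the reported counts.

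The pairing rests on the replicate number. Deviations of control and LPS plus torin1 libraries with the same number had correlations over genes of -0.0919 to 0.351, so that these data do not show the pairing between these groups in polysomes. In total mRNA they were 0.339 to 0.426, and between LPS alone and LPS plus torin1 in polysomes 0.488 to 0.739. Without the replicate block 3950 genes were called in place of 4931 (3938 of them shared), 2060 higher and 1890 lower, and 1557 in place of 2552 between LPS plus torin1 and LPS alone. Of the 254 genes that the naming rules gave (named genes), 29 lost the call without the block and 1 gained it. Without the LPS-alone libraries 33 lost it. Without experiments 1, 2 and 3, 47, 3 and 76 named genes lost it. These counts are for calls against control, and single calls against LPS alone were not followed in this way. The correction for transcript length called 4838 genes. At these depths counting error is small beside the spread between experiments, and genes of a few counts in the controls, such as Col5a3 and Flrt3, have folds that rest on those counts.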
